A study of Sus scrofa with 12 samples.

Results

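The chemokine genes CXCL9, CXCL10 and CXCL11 and the immunoproteasome genes PSMB8 and PSMB9 were examined in the oxyntic mucosa, which lines the stomach body and secretes acid, of young piglets. These 5 genes were taken by symbol from the array's annotation, as the features carrying 1 of these symbols and no other, and they are 5 of the 10912 genes named there and 6 of the 27558 features. PSMB9 had 2 features and the other genes 1 each, the feature of PSMB8 listed its symbol for more than 1 gene identifier, and the brightest feature stood for each gene. The genes were proposed with their levels in these same piglets known, so that their values in both groups are given as a description, without a test.

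The study asked how early microbial association affects the gastric mucosa. RNA of 12 piglets aged 2 weeks was hybridized on 1 array each, with 6 piglets of complex association (CA) and 6 of simple association (SA). All of them were cesarean-derived (Great York x Pietrain) x Dalland crossbred, artificially fed, and were given a starter microbiota of Lactobacillus amylovorus, Clostridium glycolicum and Parabacteroides from day 1 to day 3 of age. The CA piglets then received diluted feces of an adult sow on days 3 to 4, whereas the SA piglets received a placebo. According to the labels the groups were kept in separate rooms, and in that case room and association cannot be told apart. Litter, pen and sex are not given per piglet. Values are log2 of the deposited intensity, so that a difference of 1 is a doubling. ATP4A and ATP4B, the subunits of the gastric proton pump, were among the brightest genes, at percentiles 99.8 and 99.7. The median intensity of an array lay between 55.6 and 57.6. The first principal component set CA piglet 4 apart with 26.9, and SA piglet 11 was farthest at the other end with -17.4.

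CXCL9, CXCL10 and CXCL11 are small secreted proteins that attract activated T cells and natural killer cells through a shared receptor, CXCR3. Their genes lie next to each other and are classical targets of interferon gamma, which signals through its receptor and the kinases JAK1 and JAK2, and induces the secondary factor IRF1. PSMB8 and PSMB9 encode catalytic subunits that replace constitutive ones in the proteasome under interferon and thereby alter the peptides offered to T cells on class I molecules. In the stomach, epithelial cells, macrophages and endothelium are all able to produce the chemokines. In bulk mucosa, fewer cells of a type and less RNA per cell cannot be told apart.

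All 5 genes had a higher mean in the SA piglets and were highest in a few of them. From the difference of the log2 means, the geometric mean intensity of the SA piglets was 2.99-fold that of the CA piglets for CXCL9, 1.86-fold for CXCL10, 2.03-fold for CXCL11, 1.14-fold for PSMB8 and 1.29-fold for PSMB9. The CA means of CXCL11 (4.46) and PSMB8 (4.07) lay below the lower quartile of all gene means (4.53), and that of CXCL9 (4.57) just above it, where features carry little signal, so that the folds of these genes are uncertain in size and are not ranked. None of these genes separated the groups, since in each of them some SA piglets lay among the CA piglets. The plot of the 5 genes by piglet shows this spread.

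**Figure D1:**
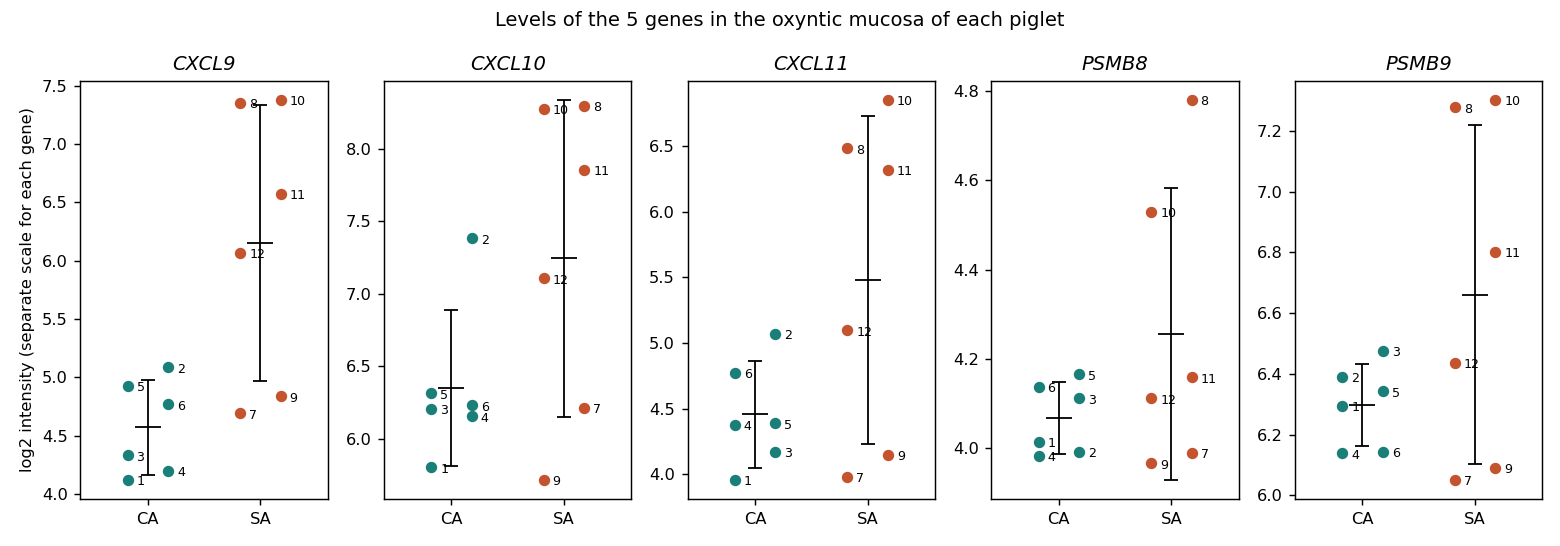
Log2 intensity of CXCL9, CXCL10, CXCL11, PSMB8 and PSMB9 in each of the 6 CA and 6 SA piglets, with the pig number beside the points and the group mean and SD drawn. SA piglets 8 and 10 are the highest of the group in every panel, and SA piglets 7 and 9 lie within or below the CA range.

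CXCL9, the ligand most narrowly tied to interferon gamma, ranged in the CA piglets from 4.12 through a median of 4.55 to 5.09. In the SA piglets it was 4.69 in piglet 7, 7.35 in piglet 8, 4.84 in piglet 9, 7.38 in piglet 10, 6.57 in piglet 11 and 6.07 in piglet 12. SA piglets 8, 10, 11 and 12 thus stood above every CA piglet, while piglets 7 and 9 lay within the CA range. The CA mean was 4.57 ± 0.41 (SD, n = 6) and the SA mean 6.15 ± 1.18 (SD, n = 6), with a difference, CA minus SA, of -1.58 (SE 0.44). On the linear scale the highest of the 12 piglets exceeded the lowest 9.56-fold.

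CXCL10, a ligand that type I interferon also induces, was 5.80 in the lowest CA piglet, 6.22 at the median and 7.38 in the highest, which was CA piglet 2. That piglet stood apart, since the next CA piglet reached 6.31. In the SA piglets CXCL10 was 6.21 in piglet 7, 8.30 in piglet 8, 5.71 in piglet 9, 8.28 in piglet 10, 7.86 in piglet 11 and 7.11 in piglet 12. Piglets 8, 10 and 11 exceeded all CA piglets, and SA piglet 9 was the lowest of the 12. The means were 6.35 ± 0.54 (SD, n = 6) and 7.24 ± 1.09 (SD, n = 6) in the CA and SA piglets, a difference of -0.90 (SE 0.43), which became -1.10 without CA piglet 2.

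CXCL11, the ligand of highest affinity for CXCR3 in man, lay between 3.96 and 5.07 in the CA piglets, with a median of 4.38. Its level in the SA piglets was 3.98 in piglet 7, 6.48 in piglet 8, 4.15 in piglet 9, 6.85 in piglet 10, 6.32 in piglet 11 and 5.10 in piglet 12. The same 4 SA piglets as for CXCL9 exceeded the CA range, piglet 12 only just. The means were 4.46 ± 0.40 (SD, n = 6) and 5.48 ± 1.25 (SD, n = 6), and the difference was -1.02 (SE 0.46).

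PSMB9, the subunit that replaces PSMB6 in the immunoproteasome, covered a narrow range in the CA piglets, from 6.14 through a median of 6.32 to 6.48. In the SA piglets it was 6.05 in piglet 7, 7.28 in piglet 8, 6.09 in piglet 9, 7.30 in piglet 10, 6.80 in piglet 11 and 6.44 in piglet 12. Piglets 8, 10 and 11 lay above the CA range and piglets 7 and 9 below it, so that the SA piglets spread to both sides. The means were 6.30 ± 0.14 (SD, n = 6) and 6.66 ± 0.56 (SD, n = 6), with a difference of -0.36 (SE 0.21). This difference was -0.24 without SA piglet 8 and -0.23 without SA piglet 10.

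The dimmer feature of PSMB9 gave a similar picture, with a CA mean of 4.25 ± 0.32 (SD, n = 6), an SA mean of 4.59 ± 0.67 (SD, n = 6) and a difference of -0.34. Its 3 highest piglets were again SA piglets 10, 11 and 8, and it correlated with the brighter feature at r = 0.79 and rho = 0.76 over the 12 piglets.

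PSMB8, the subunit that replaces PSMB5, had the smallest range of the 5 genes. In the CA piglets it lay between 3.98 and 4.17 with a median of 4.06. In the SA piglets it was 3.99 in piglet 7, 4.78 in piglet 8, 3.97 in piglet 9, 4.53 in piglet 10, 4.16 in piglet 11 and 4.11 in piglet 12. SA piglets 8 and 10 stood above the rest, whereas the other 4 SA piglets could not be set apart from the CA piglets. The means were 4.07 ± 0.08 (SD, n = 6) and 4.26 ± 0.33 (SD, n = 6), a difference of -0.19 (SE 0.13) that was -0.08 without SA piglet 8 and -0.11 with a pseudocount of 16. The mean of PSMB8 over all piglets also lay below the lower quartile of all gene means.

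Across all 10912 genes, no gene passed an adjusted p of 0.05 in limma with Benjamini-Hochberg adjustment (percent called 0, lowest adjusted p 0.999), and 358 genes, or 3.28%, had an unadjusted p under 0.05, with 1.22% lower and 2.06% higher in the CA piglets. None of the 5 genes was therefore called. Groups that did not overlap were found in 0 of the 5 genes and in 0.128% of all genes, of which those lower in the CA piglets made up 0.055% of all genes. A difference under -0.5 was found in 3 of the 5, the chemokines, and in 0.174% of all genes, and a lower mean in the CA piglets in 5 of the 5 and in 47.3% of all genes. The median difference was -0.90 over the 5 genes and 0.01 over all genes. The differences of CXCL9, CXCL11 and PSMB8 are uncertain in size, so that the 5 genes are not ranked among all genes. The 5 genes were chosen from this same comparison of CA with SA piglets, and nothing is read from their counts.

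In the 5 genes, which were chosen with these levels known, the SA piglets were more unequal than the CA piglets. This did not hold for most genes. The SD of the SA piglets was 2.90 times that of the CA piglets for CXCL9, 2.03 times for CXCL10, 3.08 times for CXCL11, 4.07 times for PSMB8 and 4.13 times for PSMB9. The median of this ratio over all genes was 0.856, and 4.83% of the genes had a ratio over 2. A wider spread in the SA piglets was not particular to the 5 genes. Among related genes the ratio was 2.46 for TAP1, 2.49 for GBP1, 2.21 for PSMB5 and 2.54 for PSMB6. It was lower for IRF1 (1.80), B2M (1.23) and PSMB7 (0.69). The CA means of CXCL11 and PSMB8 lay below the lower quartile of all gene means and that of CXCL9 just above it. The ratios of CXCL9, CXCL11 and PSMB8 are therefore uncertain in size, and nothing is read from the ratios. For CXCL9, CXCL10, CXCL11 and PSMB9 the 3 highest piglets were SA piglets 8, 10 and 11, in varying order, which was so in 31 genes, or 0.284% of all. The 31 genes include these 4. The 3 piglets were picked from the levels of the 5 genes, so that nothing is read from this share. For PSMB8 the third highest was CA piglet 5 in place of SA piglet 11. At the lower end CA piglet 1 had the least CXCL9 and CXCL11, SA piglet 9 the least CXCL10 and PSMB8, and SA piglet 7 the least PSMB9.

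The chemokines followed each other closely from piglet to piglet. Over the 12 piglets, the 3 pairs of chemokines correlated at r = 0.93 to 0.96 (rho = 0.88 to 0.92), and they did so within the CA piglets (r = 0.78 to 0.86, n = 6) as well as within the SA piglets (r = 0.97 to 0.98, n = 6). Without SA piglets 8 and 10, the farthest from the others, r was 0.84 to 0.92. PSMB8 and PSMB9 correlated at r = 0.90 (rho = 0.79), but this rested on the SA piglets, as r was 0.93 within them, 0.15 within the CA piglets and 0.61 without SA piglets 8 and 10. For the 6 pairs of a chemokine with an immunoproteasome gene, r was 0.77 to 0.91 over all piglets, 0.81 to 0.98 within the SA and -0.24 to 0.33 within the CA piglets. Within the CA piglets PSMB8 and PSMB9 hardly varied (SD 0.08 and 0.14), and PSMB8 lay below the lower quartile of all gene means. Their r within the CA piglets can therefore say little. All points of a piglet share 1 array and 1 piece of tissue, and these coefficients are given as a description.

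**Figure D2:**
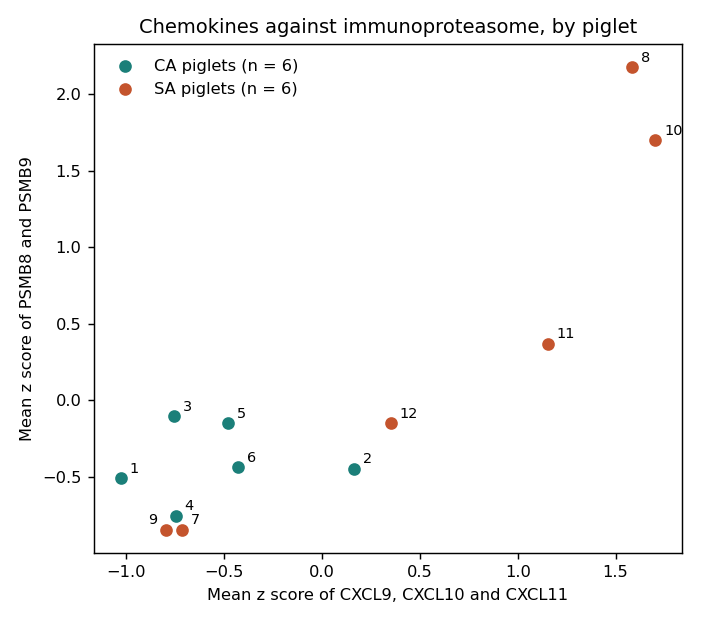
Mean z score of PSMB8 and PSMB9 against that of CXCL9, CXCL10 and CXCL11, 1 point per piglet, coloured by group. SA piglets 8 and 10 lie far to the upper right, SA piglet 11 has a chemokine score of 1.15 with an immunoproteasome score of 0.37, and the CA piglets form no line.

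Averaged as z scores over the 12 piglets, the chemokines gave 1.70 in SA piglet 10, 1.58 in piglet 8, 1.15 in piglet 11 and 0.35 in piglet 12, and -0.71 and -0.79 in SA piglets 7 and 9. The CA piglets had negative scores down to -1.03, with the exception of CA piglet 2 at 0.16. The corresponding score of PSMB8 and PSMB9 was 2.18 in SA piglet 8 and 1.70 in SA piglet 10, and -0.15 in SA piglet 12. SA piglets 11 and 12 had chemokine scores above those of all CA piglets. The immunoproteasome score of SA piglet 12 lay within the CA range, which reached -0.10, and that of SA piglet 11 was above it with 0.37, through PSMB9 (6.80) rather than PSMB8 (4.16).

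The inducing pathway was measured in part. IFNG, the gene of interferon gamma itself, gave almost no signal, with 3.00 to 3.16 in both groups, at percentile 4.05 of all genes, so that its level could not be judged from these arrays. Its receptor chain IFNGR1 differed by 0.03 (SE 0.08), JAK1 by 0.00 (SE 0.06) and JAK2 by -0.11 (SE 0.10), CA minus SA. IFNGR2 was not analysed here. IRF1, the secondary factor on which PSMB8 and PSMB9 depend in mouse and man, was 7.37 to 7.88 in the CA and 7.28 to 8.15 in the SA piglets, with a difference of -0.07 (SE 0.15), and its highest piglets were SA piglets 8 and 10 with 8.15 and 7.95. Of the 26 genes listed for the pathway 18 were measured, 13 with a higher and 5 with a lower mean in the CA piglets, 0 of them past the test in either direction, and their median difference was 0.02.

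CXCR3, the receptor of the chemokines, ranged from 6.26 to 6.88 in the CA and from 6.39 to 6.66 in the SA piglets, and its difference was -0.00 (SE 0.11). It followed the chemokines weakly (r = 0.22). Together with CXCR4, which guides lymphocytes by another ligand, ACKR1, a decoy receptor of venules, and the lymph node chemokine CCL21, 12 of 15 genes listed for chemokine-guided traffic were measured. Their median difference was 0.08, 10 had a higher and 2 a lower mean in the CA piglets, and 0 passed the test in either direction. CXCR4 gave -0.30 (SE 0.13), ACKR1 0.25 (SE 0.13) and CCL21 0.37 (SE 0.20).

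Further targets of interferon gamma had no common direction. Of 45 genes listed 20 were measured, 8 higher and 12 lower in the CA piglets, 0 past the test in either direction, with a median difference of -0.04. IFI30, a thiol reductase of antigen-presenting cells, gave -0.21 (SE 0.11), the checkpoint ligand CD274 gave -0.16 (SE 0.10), and XAF1, an apoptosis-related gene, gave 0.44 (SE 0.23). GBP1, a guanylate-binding protein named here after its values were seen, gave -0.19, with 4.63 to 6.45 in the SA and 5.16 to 5.82 in the CA piglets.

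The other steps of class I presentation were close between the groups. The proteasome activator subunits PSME1 and PSME2 differed by -0.02 (SE 0.07) and -0.05 (SE 0.10), TAPBP, which loads peptides onto class I molecules, by 0.00 (SE 0.08), and B2M, the light chain of these molecules, by 0.00 (SE 0.13). TAP1, a subunit of the peptide transporter, had a CA mean of 7.67 ± 0.25 (SD, n = 6) and an SA mean of 7.80 ± 0.62 (SD, n = 6), a difference of -0.14 (SE 0.24). Of 23 class I genes listed 14 were measured, with 6 higher and 8 lower in the CA piglets, a median difference of -0.01 and 0 past the test in either direction. TAP2, PSMB10 and the classical genes SLA-1 and SLA-2 were not analysed here.

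Of the constitutive subunits that PSMB8 and PSMB9 replace, PSMB5 had a CA mean of 9.42 ± 0.07 (SD, n = 6) and an SA mean of 9.51 ± 0.16 (SD, n = 6), a difference of -0.09 (SE 0.08). PSMB6 was 10.28 ± 0.05 (SD, n = 6) and 10.39 ± 0.14 (SD, n = 6), a difference of -0.10 (SE 0.07), and PSMB7, the third constitutive catalytic subunit, gave -0.10 (SE 0.06). All 8 measured genes of the 14 listed for the constitutive core had a lower mean in the CA piglets, with a median of -0.11 and 0 past the test in either direction. The structural subunit PSMA3 had the lowest value among them with -0.26 (SE 0.10). Whether the differences of PSMB8 and PSMB9 exceeded those of these 8 genes was not tested.

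**Figure D3:**
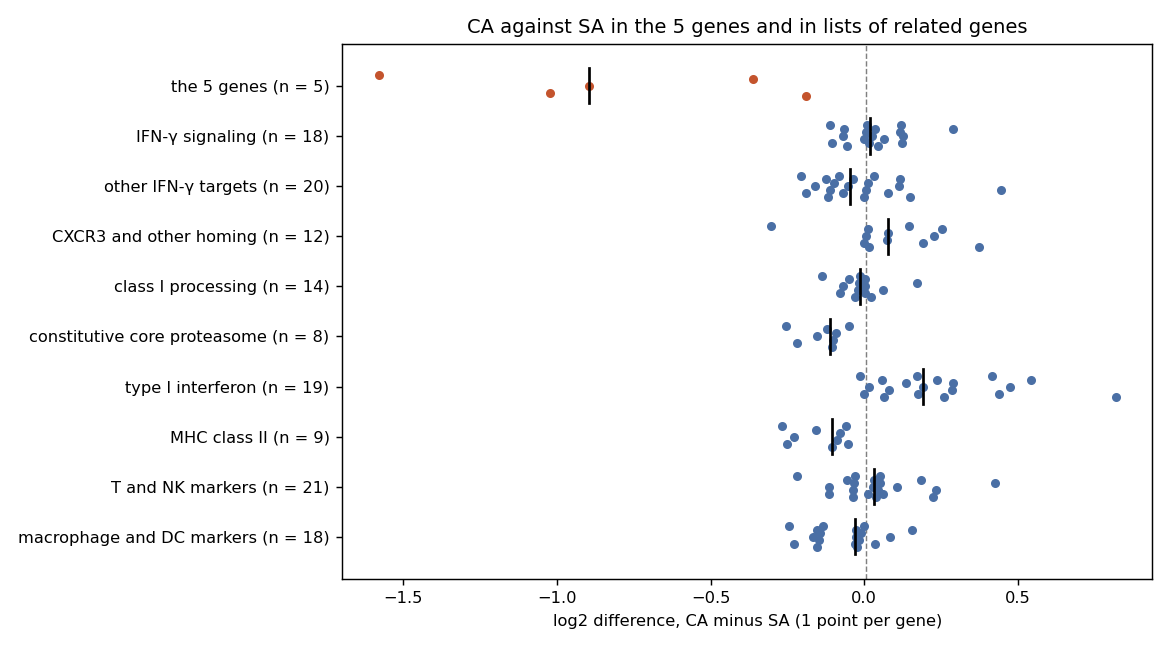
Log2 difference, CA minus SA, of each measured gene (points) and the median (bar) of the 5 genes and of 9 lists of pathway and immune cell genes, with the median of all genes (0.01) as a dashed line. The chemokines lie at -0.90 to -1.58 and the list medians between -0.11 and 0.19.

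Most genes induced mainly by type I interferon had higher means in the CA piglets, opposite to the 5 genes, though by varying amounts. Of 30 listed 19 were measured, 17 with a higher and 2 with a lower mean in the CA piglets, with a median difference of 0.19 and 0 past the test in either direction. MX1, a dynamin-like antiviral protein, had a CA mean of 9.34 ± 0.79 (SD, n = 6) and an SA mean of 8.52 ± 0.84 (SD, n = 6), a difference of 0.82 (SE 0.41). IFI44 gave 0.47 (SE 0.35) and USP18, which restrains interferon signaling, gave 0.44 (SE 0.33). MX1, IFI44 and USP18 were named for having the smallest p of the list. Others were close to no difference, such as IFIT1 with 0.06 (SE 0.44), IFIT3 with 0.06 (SE 0.39) and OASL with -0.01 (SE 0.29). Of 10 MHC class II genes listed 9 were measured, which included the class II transactivator CIITA, and all 9 were lower in the CA piglets, with a median of -0.10 and 0 past the test in either direction. SLA-DQB1 gave -0.25 (SE 0.09), SLA-DMB -0.27 (SE 0.14) and SLA-DMA -0.23 (SE 0.10).

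**Figure D4:**
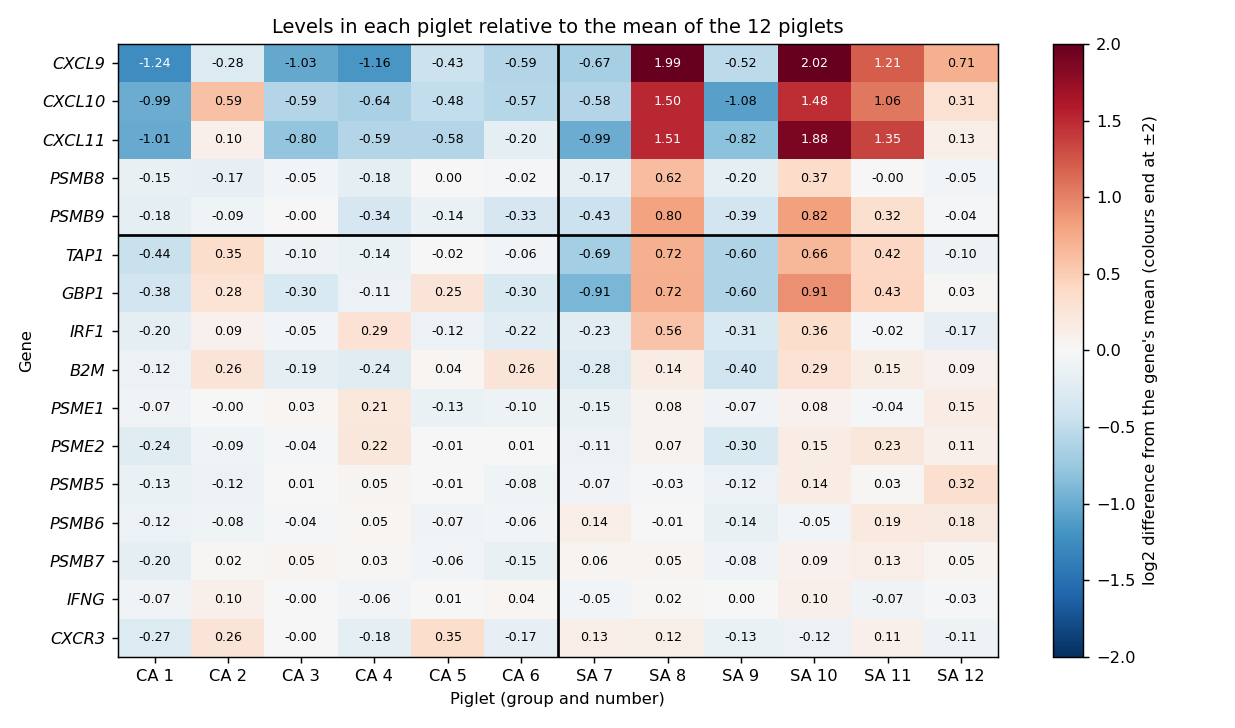
Deviation of each gene from its mean over the 12 piglets on the log2 scale, genes in rows and piglets in columns by group, for the 5 genes and genes of the interferon and class I pathways. The columns of SA piglets 8 and 10 are high for the 5 genes, TAP1 and GBP1, and those of SA piglets 7 and 9 are low. The column of SA piglet 11 is high for the same genes except PSMB8, which lies at its mean (-0.003).

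Within each group, most type I interferon genes followed the chemokines, although the group mean of MX1 lay the other way, and the targets of interferon gamma did so unevenly. Over all 12 piglets TAP1 correlated with the chemokine score at r = 0.89 (rho = 0.86) and was 4th among the 10907 other genes. Its r was 0.96 within the CA piglets, 0.90 without CA piglet 2, and 0.99 within the SA piglets (n = 6 each). GBP1 was 7th over all piglets with r = 0.87, and had 0.75 within the CA and 0.98 within the SA piglets, the former being 0.53 without CA piglet 2. MX1 was only at place 2629 with r = 0.23 over all piglets, yet had r = 0.88 within the CA and 0.74 within the SA piglets, the latter being 0.59 without SA piglet 9. Over the 19 type I genes the median r was 0.87 within the CA and 0.76 within the SA piglets, and r was above 0 within both groups in 18 of them. Over the 20 interferon gamma targets the median was 0.29 within the CA and 0.56 within the SA piglets, with 12 above 0 within both. Over the 18 pathway genes the median was 0.11 and 0.15. For comparison, r was above 0 within both groups in 26.8% of the 10907 other genes. The median r over all genes was 0.01 within the CA and 0.02 within the SA piglets.

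Counted over all genes, r was above 0.7 within both groups in 62 of 10907 genes, or 0.568%, a limit set after the values were seen. These included 11 of the 19 type I genes, 4 of the 20 interferon gamma targets (GBP1, XAF1, DTX3L and TRIM21), 2 of the 18 pathway genes (STAT2 and IRF9, which act with type I interferon) and 2 of the 14 class I genes (TAP1 and B2M). The lists of chemokine-guided traffic, class II genes and macrophage and dendritic cell markers held 1 each, namely CCL5, SLA-DQB1 and XCR1. B2M had r = 0.80 within the CA and 0.95 within the SA piglets. IRF1 reached 0.88 within the SA but 0.19 within the CA piglets. With the score of PSMB8 and PSMB9, TAP1 correlated at 0.94 within the SA and at 0.16 within the CA piglets, where these subunits hardly varied.

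Some piglets of like TAP1 level differed in their chemokines and others did not. TAP1 was 7.29, 8.08, 7.63, 7.60, 7.72 and 7.68 in CA piglets 1 to 6, and 7.05, 8.45, 7.13, 8.40, 8.15 and 7.63 in SA piglets 7 to 12. CA piglet 2 and SA piglet 11 were thus close in TAP1, with 8.08 and 8.15, but CXCL9 was 5.09 in the former and 6.57 in the latter, CXCL11 5.07 and 6.32, and CXCL10 7.38 and 7.86. CA piglet 3 and SA piglet 12 had the same TAP1 level of 7.63, while their CXCL9 was 4.33 and 6.07. In CA piglet 1 and SA piglet 9, with TAP1 at 7.29 and 7.13, CXCL9 was 4.12 and 4.84, but CXCL10 was 5.80 and 5.71 and CXCL11 3.96 and 4.15. MX1 was 8.42, 10.30, 8.44, 9.20, 9.96 and 9.72 in CA piglets 1 to 6 and 7.77, 8.22, 7.43, 9.56, 9.02 and 9.15 in SA piglets 7 to 12, so that SA piglet 8, among the highest in all chemokines, was below every CA piglet in MX1. These pairs were picked after their values were seen, on genes chosen for their difference between the groups, and nothing is read from them.

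**Figure D5:**
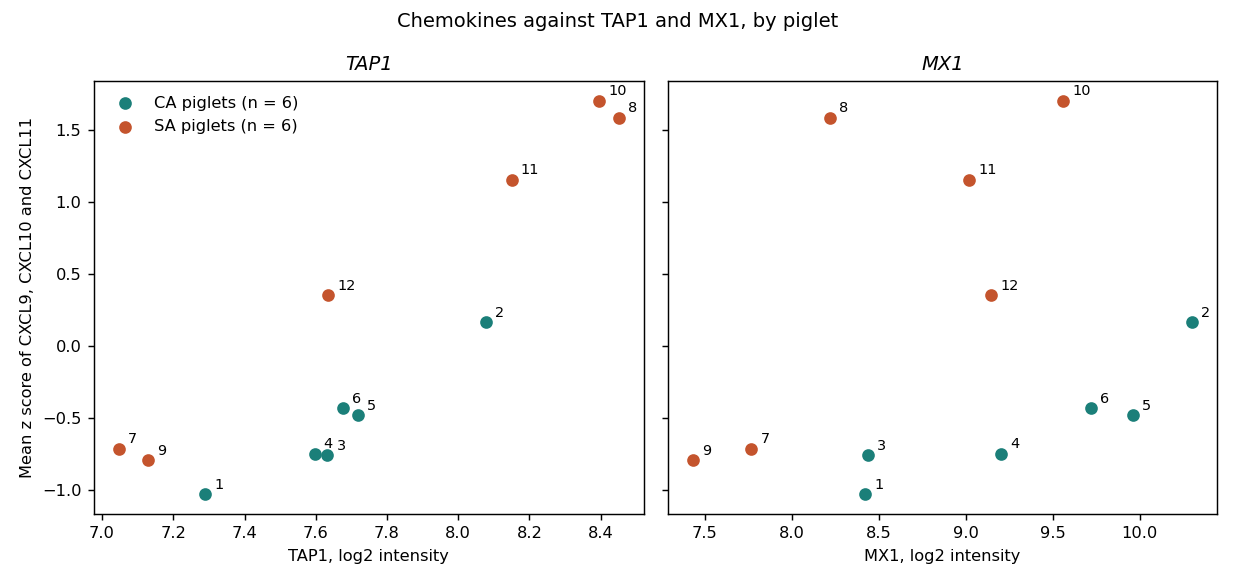
Mean z score of CXCL9, CXCL10 and CXCL11 against the log2 intensity of TAP1 and of MX1, 1 point per piglet, coloured by group. In both groups the score rises with TAP1, and SA piglet 8 combines a score of 1.58 with an MX1 level of 8.22, below every CA piglet.

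Among genes brighter than the median of all genes, those most like the chemokine score over the 12 piglets were EMP1 (r = 0.89, rho = 0.84), GNL3 (r = 0.89, rho = 0.63), TAP1, CCT7 (r = 0.88, rho = 0.81), RAN (r = 0.82), DNAJB11 (r = 0.81), PA2G4 (r = 0.80) and ACSL5 (r = 0.80). EMP1 is an epithelial membrane protein, GNL3 a nucleolar GTPase and CCT7 a subunit of the cytosolic chaperonin. Their own differences were -0.21 (SE 0.09) for EMP1, -0.20 (SE 0.06) for GNL3 and -0.11 (SE 0.07) for CCT7. Without SA piglets 8 and 10, r was 0.81 for EMP1, 0.71 for GNL3 and 0.73 for CCT7. Those most like the score of PSMB8 and PSMB9 were CCT7 (r = 0.88, rho = 0.83), HNRNPM (r = 0.85), TAP1 (r = 0.84), GNL3 (r = 0.82, rho = 0.43), SAE1 (r = 0.81), COPB2 (r = 0.80), ILF2 (r = 0.79) and EMP1 (r = 0.79). Of these, GNL3 and ILF2 rested most on SA piglets 8 and 10, without which their r was 0.49 and 0.20.

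The neighbours of the 5 genes on the chromosomes differed little between the groups. In the gene order of RefSeq for Sscrofa11.1 the chemokine genes lie on chromosome 8 between SDAD1 and NUP54, with ART3 overlapping CXCL10 and CXCL11. The differences of these neighbours were 0.03 (SE 0.06) for SDAD1, -0.04 (SE 0.08) for NUP54 and 0.16 (SE 0.09) for ART3, and their r with the chemokine score was 0.15, 0.10 and -0.05. PSMB8 and PSMB9 lie on chromosome 7 on both sides of TAP1, in the class II region, between TAP2 and BRD2. BRD2, a bromodomain protein, differed by -0.01 (SE 0.06), and SLA-DOB beyond TAP2 by -0.08 (SE 0.12). Although their means were close, BRD2 had r = 0.42 with the chemokine score and 0.57 with that of PSMB8 and PSMB9, and NAAA, next to SDAD1, had 0.33 and 0.60 with a difference of -0.05 (SE 0.14).

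Markers of cells that could produce or receive the chemokines were compared by the same lists. Of the T and natural killer cell markers 21 of 24 were measured, 13 higher and 8 lower in the CA piglets, with a median difference of 0.03, 0 past the test in either direction and a summed intensity of 931 to 1104 in the CA and 894 to 1099 in the SA piglets. GZMB, GZMH, KLRK1, KLRB1, KLRD1 and EOMES among them were below the lower quartile of all genes. LCK, a kinase that T cell receptors activate, gave -0.22 (SE 0.06), and IL7R, the interleukin 7 receptor of resting T cells, gave 0.23 (SE 0.09). The median r of these markers with the chemokine score was 0.22 over all piglets, with 16 of 21 above 0, 0.19 within the CA and 0.49 within the SA piglets. Macrophage and dendritic cell markers, 18 of 24 measured, were higher in the CA piglets in 4 and lower in 14, with a median of -0.03, and their sum was 1720 to 2757 in the CA and 2163 to 2857 in the SA piglets, with ITGAM, MARCO, FCGR1A and CLEC9A below the lower quartile. None of these 18 passed the test in either direction. Their median r with the chemokine score was 0.44, with 15 of 18 above 0, and it was 0.58 within the CA and 0.52 within the SA piglets. The sums overlapped between the groups in both lists. Over all genes the median r with the chemokine score was -0.004, and r was above 0 in 49.5% of them.

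The remaining marker lists covered epithelium, vessels and other cells. The 10 measured of 13 oxyntic epithelial markers had a median difference of 0.23, 9 of them higher and 1 lower in the CA piglets, and 0 of the 10 correlated with the chemokine score above 0 over all piglets (median r = -0.48). The median r was 0.35 within the CA piglets and -0.54 within the SA piglets. Of these 10 genes 4 had an unadjusted p under 0.05, with KCNE2, a potassium channel subunit of parietal cells, at 0.83 (SE 0.27) and the potassium channel KCNJ15 at 0.62 (SE 0.27), and 0 an adjusted p under 0.05. Their summed intensity was 21120 to 25953 in the CA and 20221 to 26464 in the SA piglets. The 5 measured of 8 endothelial markers were all higher in the CA piglets, with a median of 0.14, sums of 1829 to 2255 and 1705 to 1965, and a median r of -0.41, which was -0.01 within the CA and -0.33 within the SA piglets. The 5 measured of 11 B and plasma cell markers had a median difference of -0.07 and sums of 1858 to 2235 and 1979 to 2228 in the CA and SA piglets, and the 2 measured of 5 smooth muscle markers 1382 to 2671 and 1027 to 3654. Neutrophil markers were near background, as S100A8, S100A9, S100A12 and MPO lay below the lower quartile, with sums of 83.4 to 110 and 80.6 to 98.1. In these 5 lists 0 genes passed the test in either direction, and the part of tissue makeup in the levels of the 5 genes was not tested.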

How the data were processed

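Oxyntic mucosa of 6 CA and 6 SA piglets was measured on the Affymetrix Porcine Gene 1.1 ST array, 1 array per piglet. The authors used Robust Multichip Analysis (Expression Console, version not given in the sources used here) for background correction, quantile normalization and summary. The deposited intensities are linear and were converted to log2. Groups came from the labels, and 0 columns of sample values were left unused. Of 27558 features, 11982 carried 1 symbol in the platform annotation, 373 several and 15203 were not named here; the brightest feature was kept for each of 10912 genes, 969 of which had more than 1 feature. All genes were compared with lmFit and eBayes of limma 3.58.1 in R 4.3.3 with Benjamini-Hochberg adjustment, without covariates, after a check on simulated data. Differences are CA minus SA with limma's SE. Piglets are separate animals, but the paper took them from fewer sows than piglets, so that some were littermates. The fit treats them as independent. Python 3.11.15 gave correlations, scores and counts (scipy 1.17.1, pandas 2.3.3, numpy 2.4.6), and matplotlib 3.10.9 the figures. The number of arrays limits the precision.

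The 5 genes, the 14 lists and the tests were chosen with earlier results of these data known. Genes named were the 5 genes, the main genes of interferon gamma signaling and class I processing, up to 4 further genes of each list with the smallest p, and the 8 bright genes most like each score. Alternatives were averaging the features of a gene, quantile normalization again, median centring, a pseudocount of 16, array weights, a filter at the lower quartile, an intensity trend, all features, and leaving out each piglet in turn. No sequences are shown, as the tables used here hold gene names only. The labels and the methods differ on the early feeding (colostrum or serum), the RNA kit and the housing, and the labels also describe a jejunal procedure at a later age, which was not used.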

Additional observations from a re-analysis of the deposited data

Results flagged for a closer look

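In 14 of 168 groups of 6 piglets, taken over 84 named genes, the highest or lowest piglet stood far from the others; about 8.4 such groups, or 5%, are found by chance. Among the 5 genes the only case was CXCL10 in CA piglet 2, with 7.38 against 6.31 in the next CA piglet. CA piglet 2 also stood above its group in the type I interferon gene ADAR (8.52). CA piglet 4, whose array stood apart, was lowest in JAK2 (8.45) and in PSMA3 (8.79), while SA piglet 12 was highest in JAK2 (9.20) and in XBP1 (10.11). CA piglet 3 was lowest in KCNE2 (8.29) and in ATP4A (11.82), and CA piglet 1 was lowest in SLA-7 (7.26) and in EMP1 (9.81). SA piglet 9 was lowest in PSMA5 (7.80), SA piglet 10 in CLDN5 (5.56) and CA piglet 5 in CD79A (9.38), and CA piglet 6 was highest in CXCR2 (5.78).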

How the results depend on the processing

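The differences of the 5 genes stayed negative under all alternatives run, and 0 genes were called in each of them. Leaving out each piglet in turn gave -1.87 to -1.33 for CXCL9, -1.20 to -0.69 for CXCL10, -1.32 to -0.75 for CXCL11, -0.25 to -0.08 for PSMB8 and -0.48 to -0.23 for PSMB9. A pseudocount of 16 moved PSMB8 to -0.11 and CXCL9 to -1.18. PSMB8 has no value under the filter on dim features. Genes with an unadjusted p under 0.05 numbered 358 in the fit reported, 700 with array weights, 911 of the 27558 features with all features tested, and 243 to 672 when 1 piglet was left out (243 without SA piglet 12, 502 without CA piglet 4, 532 without CA piglet 3 and 672 without SA piglet 9); the lowest adjusted p over all settings was 0.119, without CA piglet 5.

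Of 79 other genes named, 12 turned sign when 1 piglet was left out and 5 under another setting. Each of them had a difference smaller than its SE, the largest being -0.14 (SE 0.27) for CNN1. The cause was not tested. With 1 piglet left out the ranges were -0.0106 to 0.0288 for IFNG, -0.000500 to 0.0756 for IFNGR1, -0.0182 to 0.0392 for JAK1, -0.13 to 0.0400 for IRF1, -0.0711 to 0.0538 for CXCR3, -0.0634 to 0.0102 for PSME1, -0.0463 to 0.0411 for TAPBP, -0.0774 to 0.0597 for B2M, -0.13 to 0.0442 for SLA-7, -0.0500 to 0.0348 for XBP1, -0.36 to 0.0621 for CNN1 and -0.0711 to 0.0813 for SMTN. Quantile normalization again gave -0.0014 for IFNG and -0.00078 for JAK1. Median centring gave -0.00642 for JAK1, -0.00445 for TAPBP and -0.00511 for B2M. Array weights gave 0.0514 for CXCR3 and -0.0369 for TAPBP, and the pseudocount gave 0.00148 for CXCR3. No paired or blocked analysis was possible, because litter is not given per piglet.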
